A study of Mus musculus with 6 samples.

Results

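The trophoblast lineage genes examined here were the transcription factors *Cdx2*, *Tead4*, *Gata2*, *Gata3*, *Tfap2c*, *Elf5* and *Hand1* and the keratins *Krt8* and *Krt18*, a set of 9 genes chosen by symbol as regulators and markers of the extraembryonic trophoblast. Each was looked up through the RefSeq identifier of its entry, and where a symbol had several entries the one with the highest mean level was kept. Of the 9 genes, 7 had an entry among the 20633 transcript entries of the table (20560 of them with a symbol), and *Krt8* and *Krt18* were not analysed here.

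The 6 libraries hold nuclear RNA of mouse embryonic stem cells (ESCs) of the genotype *Rybp* fl/fl;*Yaf2*-/-. In these cells both alleles of *Yaf2* were deleted beforehand, loxP sites flank *Rybp*, and Cre recombinase can be switched on by tamoxifen. Of these libraries, 3 came from untreated cells (UNT) and 3 from cells kept for 96 hr in 4-hydroxytamoxifen (OHT) at 800 nM. The titles number the replicates within each group, and the paper describes them as biological replicates. All libraries therefore lacked functional *Yaf2*, the *Yaf2*-/- line was grown from a colony isolated after genome editing, and neither wild-type cells nor OHT-treated cells without floxed *Rybp* were among the libraries. RYBP and YAF2 are paralogous subunits of variant forms of Polycomb repressive complex 1 (PRC1), which places ubiquitin on histone H2A and holds many developmental genes silent in ESCs.

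The value analysed is the base mean, the authors' average over all 6 libraries of read-pair counts normalised for library size. It pools UNT and OHT cells, so the levels below describe both together and neither alone. No difference between OHT and UNT was computed. No value per library was used, so depth is unknown, no spread between replicates can be given, and no level below has an error or a test. The pooled mean also cannot check the labels at *Rybp*, whose level combines cells before and after deletion (base mean 13983). *Yaf2*, deleted in every library, had a base mean of 3.24.

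In the early mouse embryo the trophectoderm is the first lineage to separate from the cells that give rise to ESCs, and it goes on to form the placenta. TEAD4, with the Hippo pathway coactivator YAP, switches on *Cdx2* and *Gata3* in outer cells, while OCT4 (encoded by *Pou5f1*) opposes *Cdx2* in inner cells. TFAP2C, ELF5 and GATA2 act in trophoblast stem cells and their progeny, and HAND1 drives the formation of trophoblast giant cells. ESCs rarely enter this lineage, and several of its regulators are known Polycomb targets in them.

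**Figure D1:**
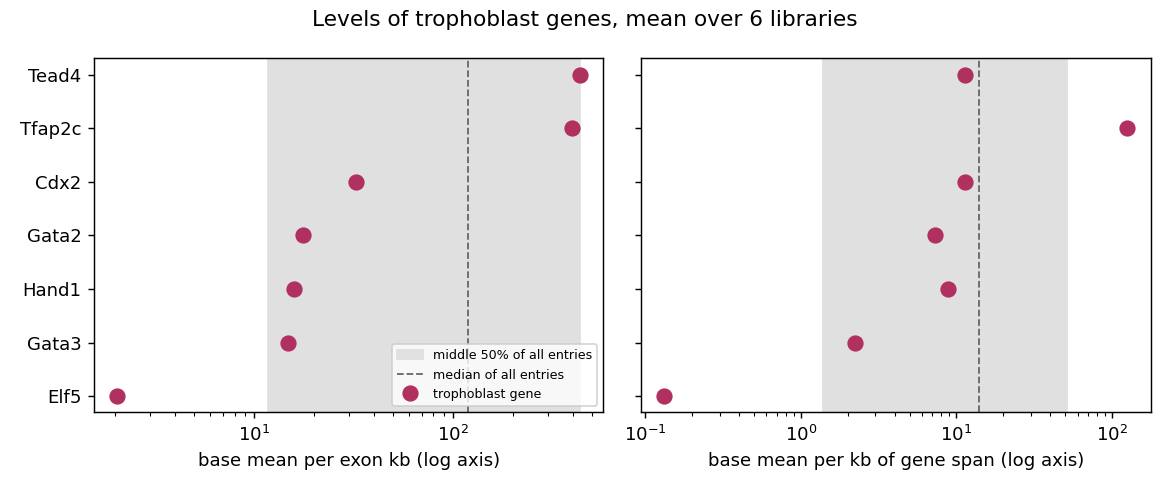
Base mean over the 6 libraries divided by exon length (left) or by gene span (right), both on log axes, for the 7 trophoblast genes with an entry. Red points are genes, the grey band runs from the lower to the upper quartile of 18871 entries and the dashed line is their median. *Tead4* and *Tfap2c* lie right of the median per exon kb, and *Tfap2c* alone does so per kb of span.

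Levels were compared between genes after division by length, except in the alternative with no division by length. Per kb of exon, *Tead4* and *Tfap2c* were the 2 trophoblast genes above the median of all entries with a length and a base mean above 0 (118.8 per exon kb, 18871 entries), and the other 5 lay below it. *Tead4* had 434 per exon kb, at percentile 74.8 of those entries, and *Tfap2c* had 399 per exon kb, at percentile 73.0. *Cdx2* followed at 32.5 per exon kb (percentile 34.3). *Gata2* had 17.7 per exon kb (percentile 28.4), *Hand1* had 15.9 (percentile 27.4) and *Gata3* had 14.9 (percentile 26.8). *Elf5* was last at 2.06 per exon kb (percentile 12.6). From *Tfap2c* to *Elf5* the ratio of levels per exon kb was 194, and from *Tead4* to *Cdx2* it was 13.4. The size of the former is uncertain, since *Elf5* had a base mean of 5.21. *Gata2*, *Hand1* and *Gata3* lay close together in this order, and without a spread between libraries it is not known whether these neighbours differ.

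The choice of length changed the place of *Tead4*. Nuclear RNA is rich in unspliced transcripts, and the base means followed the genomic span of an entry as well as its exons. Over 18871 entries the base mean had a rho of 0.38 with exon length and of 0.37 with span, so neither length stood out there. After division, the level per exon kb still rose with span (rho 0.23), and the level per span kb fell with it (rho -0.15). Among 732 pairs of overlapping entries of one gene, both with a base mean of at least 10, the log ratio of base means had a Spearman rho of 0.64 with the log ratio of spans and of 0.23 with the log ratio of exon lengths, as a description across genes, in which both entries of a pair share reads. In 44 pairs the entry with the longer span was at least 2 times as long and had no more exon bases than its partner. The longer entry had the higher base mean in 42 of these 44 pairs, by a median of 1.90-fold. The levels of the trophoblast members are therefore given on both scales, and other genes by exon length with the span where named. This check was chosen after seeing the data.

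Per kb of gene span, *Tfap2c* had 125 and lay at percentile 90.4, while *Tead4*, whose entry runs over 72.6 kb with 1909 exon bases, had 11.4 and lay at percentile 46.8, below the median of 14.05 per span kb. *Cdx2* had 11.4 per span kb as well (percentile 46.8). *Hand1*, with 2 exons over 3.44 kb, had 8.82 per span kb (percentile 43.1), and *Gata2* had 7.29 (percentile 40.7). *Gata3* had 2.22 per span kb (percentile 28.9). *Elf5* had 0.133 per span kb (percentile 9.07). *Tfap2c* was thus above the median of all entries on both scales, *Tead4* on the exon scale only, and *Cdx2*, *Gata2*, *Gata3*, *Hand1* and *Elf5* on neither. *Elf5* was last and *Cdx2* was the third on both. Per kb of span *Cdx2* and *Tead4* had 11.35 and 11.42, and without a spread between libraries it is not known whether they differ.

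*Tfap2c*, which encodes transcription factor AP-2 gamma and is also used by primordial germ cells, is a plus-strand gene of chromosome 2 (172549593 to 172558622 in mm10, 7 exons). Its base mean was 1131. The nearest entry, *Fam209*, began 75262 bp away and had 30.3 per exon kb. *Tead4*, a TEA domain factor that binds DNA and depends on YAP or TAZ for activation, is a minus-strand gene of chromosome 6 (128228181 to 128300813, 11 exons), and its base mean was 829. A processed pseudogene on the opposite strand, *Gm21893*, overlaps 397 bp of the *Tead4* span. It had no entry. The libraries were made with a directional kit, which keeps the strand of the RNA, but the counting script is not stated to use strand.

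*Cdx2*, the caudal-type homeobox factor required for trophectoderm, is a minus-strand gene of chromosome 5 (147300805 to 147307270, 3 exons) and had a base mean of 73.4. Its nearest entry, *Urad*, lies 7714 bp away on the same strand and had a base mean of 0.702. Per exon kb *Urad* had 0.916, against 32.5 for *Cdx2*. *Gata2* (chromosome 6, plus strand, 88198334 to 88207030) and *Gata3* (chromosome 2, minus strand, 9857078 to 9878600) encode zinc finger factors of one family and have 6 exons each. The base mean of *Gata2* was 63.4 and that of *Gata3* was 47.8. *Gm13256*, annotated antisense to *Gata3*, overlaps 6.25% of its span and had no entry. Although the libraries were directional, the counting script is not stated to use strand. It is therefore not known whether reads of the antisense RNA entered the *Gata3* value. The next entries beside *Gata3*, *4930412O13Rik* at 2652 bp and *9230102O04Rik* at 4441 bp, had base means of 2.35 and 0.451.

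*Hand1*, a basic helix-loop-helix factor, is a minus-strand gene of chromosome 11 (57828707 to 57832147) and had a base mean of 30.3. Its nearest entry was *Sap30l*, 18490 bp away on the other strand, with 256 per exon kb. *Elf5*, an ETS factor that sustains trophoblast stem cells, was the 1 member with 2 entries. The longer spanned chromosome 2, plus strand, from 103411688 to 103450986, and the shorter from 103424062 to 103450989. Both had a base mean of 5.21, equal to 6 decimals, although the longer entry starts 12374 bp further upstream. Since the tie leaves the rule without a choice, the levels of *Elf5* are those of the longer entry, and the shorter one would stand at 2.34 per exon kb and percentile 13.4. *Cat*, a gene for the peroxide-degrading enzyme catalase, lies 2863 bp from *Elf5* on the other strand and had 562 per exon kb, at percentile 80.2.

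**Figure D2:**
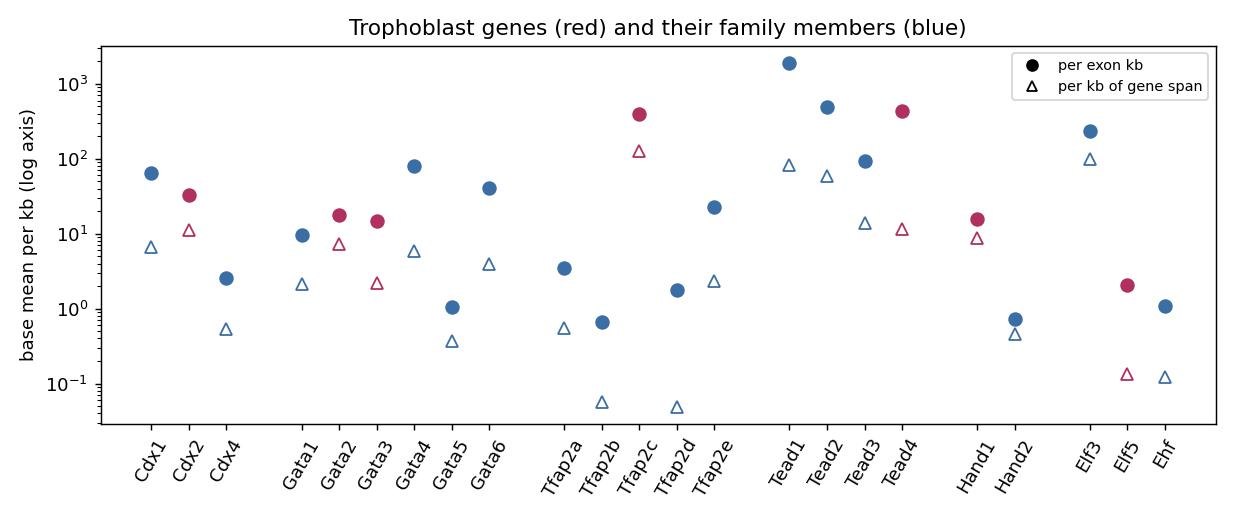
Base mean per exon kb (filled circles) and per kb of gene span (open triangles) on a log axis, as the mean over 6 libraries, for trophoblast genes (red) and paralogs (blue). *Tfap2c* stands above its 4 paralogs on both scales, whereas *Gata2*, *Gata3*, *Tead4*, *Cdx2* and *Elf5* have at least 1 paralog with a higher level per exon kb.

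The place of each factor within its family differed. *Tfap2c* had 17.7 times the level per exon kb of *Tfap2e* (22.6 per exon kb) and 114 times that of *Tfap2a* (3.49 per exon kb), or 228 times that of *Tfap2a* per kb of span. The ratios to *Tfap2a* divide by a low value (base mean 9.99), so their size is uncertain. *Tfap2d* and *Tfap2b* had 1.77 and 0.661 per exon kb. Per kb of span the ratio of *Tfap2c* to *Tfap2e* was 53.9, so that *Tfap2c* was first of the 5 AP-2 genes on both scales.

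Among the TEAD genes *Tead1* was first, with 1894 per exon kb and 83.0 per span kb. *Tead2* had 487 per exon kb, 1.12 times the level of *Tead4*, and 58.3 per span kb. *Tead3* had 93.8 per exon kb, below *Tead4*, but its 13.9 per span kb was above the 11.4 of *Tead4*. *Tead4* was accordingly the third of the 4 TEAD genes per exon kb and the fourth per kb of span.

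Of the GATA genes, *Gata4* and *Gata6*, which mark primitive endoderm, had higher levels per exon kb (79.6 and 41.0) than *Gata2* and *Gata3*. Per kb of span *Gata2* was higher than both (7.29 against 5.80 for *Gata4* and 4.00 for *Gata6*), whereas *Gata3* was lower than both. *Gata1*, a factor of red blood cells, had 9.76 per exon kb and *Gata5* had 1.07. *Cdx1* had 65.1 per exon kb, 2.01 times the level of *Cdx2*, but 6.57 per span kb against 11.4 for *Cdx2*. *Cdx4* had 2.54 per exon kb. *Hand1* was 22.1 times as high as *Hand2* per exon kb and 19.0 times per kb of span. *Hand2* had a base mean of 1.69, below the 3.24 of the deleted *Yaf2*, so the size of these ratios is uncertain. *Elf3*, an ETS factor of epithelia, had 235 per exon kb, 114 times the level of *Elf5*, and 98.7 per span kb, 744 times that of *Elf5*. The base mean of *Elf5* was 5.21, so the size of these ratios is uncertain too. *Ehf* had 1.08 per exon kb.

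The other genes of the lineage were taken from lists of known function, and their counts describe these libraries without a test. Of 14 further genes of trophoblast stem cells and precursors, all had an entry, and 4 lay above the median of all entries per exon kb and 7 per kb of span. They ranged from *Tfap2a* at 3.49 per exon kb to *Peg10*, an imprinted retrotransposon-derived gene needed for placenta formation, at 1124 per exon kb (percentile 91.2). Their median percentile was 40.5 per exon kb, against 28.4 for the 7 trophoblast members, and 49.1 against 43.1 per kb of span. Of 8 genes of differentiated trophoblast 4 had an entry, and 0 of these 4 lay above the median on either scale. They ran from *Syna*, which encodes a syncytin of the placental syncytiotrophoblast, at 2.49 per exon kb to *Ascl2*, a factor of spongiotrophoblast precursors, at 17.2 per exon kb. *Prl3d1*, *Prl2c2*, *Tpbpa* and *Synb* were not analysed here. Of 10 genes of the Hippo pathway, which controls TEAD4 activity, 7 lay above the median per exon kb and 7 per kb of span, from *Lats2* at 86.8 to *Tead1* at 1894 per exon kb.

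**Figure D3:**
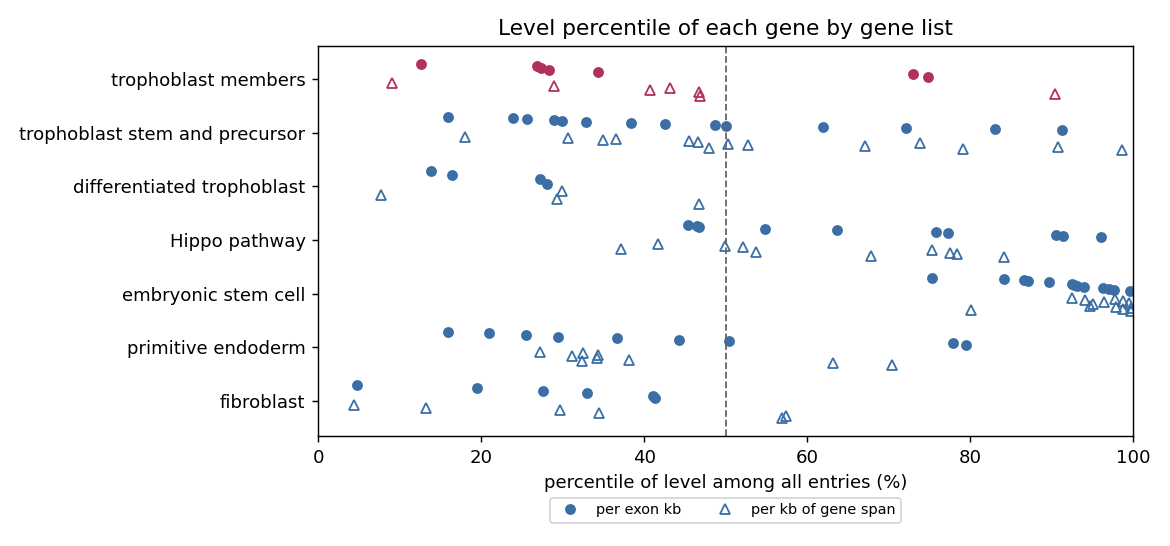
Percentile of each gene's level among all entries, per exon kb (filled circles) and per kb of gene span (open triangles), by gene list; the dashed line is the median, and each symbol is 1 gene as a mean over 6 libraries. Of the 7 trophoblast members (red), 2 circles and 1 triangle lie right of the line, as do the circles and triangles of all 13 embryonic stem cell genes.

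Markers of the labelled cell type were high. Of 14 ESC genes 13 had an entry, and all 13 lay above the median on both scales, from *Tbx3* at 444 per exon kb to *Tdgf1* at 7402. *Pou5f1* had 2231 per exon kb, 68.7 times the level of *Cdx2* and 5.60 times that of *Tfap2c*. Per exon kb all 13 lay above each of the 7 trophoblast members, by a small margin in the case of *Tbx3* and *Tead4* (444 and 434). Per kb of span 1 of the 13, *Esrrb* (named after its value was seen, 66.1 per span kb), fell below *Tfap2c*.

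Genes of primitive endoderm, the other extraembryonic lineage of the early embryo, overlapped the trophoblast members in level. All 9 had an entry, 3 lay above the median per exon kb and 2 per kb of span, and they ranged from *Foxa2* at 3.49 to *Lama1*, which encodes a laminin chain, at 543 per exon kb. *Cdx2* lay above 4 of these 9 genes per exon kb and above 7 per kb of span. *Elf5* lay below all 9 on both scales. Of 6 fibroblast genes 0 lay above the median per exon kb and 2 per kb of span, from *Postn* at 0.421 to *Thy1*, which is also expressed outside fibroblasts, at 63.6 per exon kb. The levels of *Cdx2*, *Gata2*, *Hand1*, *Gata3* and *Elf5* per exon kb fell inside this range. Whether a low level stands for a few cells of another type or for little RNA in each ESC cannot be told apart in bulk samples, and the part of such cells in these levels was not tested. The pooled mean also does not show how much of a level came from UNT and how much from OHT cells.

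Promoter sequence was examined because Polycomb complexes in ESCs occupy CpG-rich promoters, and levels can be set beside CpG content. The windows are the 250 bases before the RefSeq start, classed as CpG-rich where the observed over expected CpG ratio was at least 0.6 and the GC content at least 50%. A window within 500 bp of the entry's start was found for *Cdx2*, *Gata2*, *Gata3* and *Elf5*. No RefSeq window was available for *Tead4*, *Tfap2c* and *Hand1*. The 2 members above the median per exon kb, *Tead4* and *Tfap2c*, are therefore absent from the comparison of level with CpG content. GENCODE places the start of the *Gata2* entry 330 bp and that of the longer *Elf5* entry 410 bp upstream of the RefSeq start, so all 250 bases of these windows lie in annotated exons and not before the entry's start. The windows of *Cdx2*, *Gata3* and the shorter *Elf5* entry are shown because they set CpG-rich windows of genes at a low level beside one that is not CpG-rich, with each CpG in capitals, read 5' to 3' on the strand of the gene (RefSeq, GRCm38.p6). The *Cdx2* window is chr5:147307250-147307499 on the minus strand, with 13 CpGs. The *Gata3* window is chr2:9878601-9878850 on the minus strand, with 19 CpGs. The *Elf5* window is chr2:103423818-103424067 on the plus strand, with 8 CpGs.
Cdx2: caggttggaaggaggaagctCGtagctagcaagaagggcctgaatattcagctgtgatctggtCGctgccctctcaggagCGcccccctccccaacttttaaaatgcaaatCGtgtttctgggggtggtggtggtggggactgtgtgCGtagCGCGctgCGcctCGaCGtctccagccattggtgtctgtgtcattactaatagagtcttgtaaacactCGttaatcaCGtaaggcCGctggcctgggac
Gata3: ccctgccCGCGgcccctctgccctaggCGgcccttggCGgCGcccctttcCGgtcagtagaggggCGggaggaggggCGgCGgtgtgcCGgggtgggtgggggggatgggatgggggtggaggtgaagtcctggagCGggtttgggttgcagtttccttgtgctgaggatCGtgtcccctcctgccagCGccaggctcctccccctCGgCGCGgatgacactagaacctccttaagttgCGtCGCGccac
Elf5: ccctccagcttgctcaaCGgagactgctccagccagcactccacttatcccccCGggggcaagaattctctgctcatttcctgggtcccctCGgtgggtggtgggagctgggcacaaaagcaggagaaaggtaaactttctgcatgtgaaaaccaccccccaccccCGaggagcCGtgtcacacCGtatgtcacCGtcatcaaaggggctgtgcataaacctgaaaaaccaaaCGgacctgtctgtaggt

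Of the 13 CpGs of *Cdx2*, 9 lie in the 125 bases nearer the start, against 9 of the 19 of *Gata3* and 5 of the 8 of *Elf5*. The CpG ratio was 0.69 for *Cdx2* (55.2% GC), 0.63 for *Gata3* (70.0% GC) and 0.74 for *Gata2* (74.0% GC, 24 CpGs), so that all of these were CpG-rich. The windows of *Elf5* were not, with a ratio of 0.40 for the shorter entry and 0.081 for the longer. Over 32851 RefSeq windows the median was 6 CpGs, and 31.0% were CpG-rich.

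Entries with a CpG-rich window had higher levels as a whole than the remainder. Of 14312 entries with a window, a length and a base mean above 0, 7273 were CpG-rich with a median of 287 per exon kb (quartiles 97.0 and 680.0), and 71.2% of them lay above the median of all entries. The other 7039 had a median of 23.9 per exon kb, and 30.8% lay above it. *Cdx2*, *Gata2* and *Gata3* stood low for their class, at percentiles 13.2, 9.18 and 8.22 of the levels of CpG-rich entries. Set against the entries whose windows were not CpG-rich, they lay near the middle, at percentiles 53.6, 46.2 and 44.2. Per kb of span they stood at percentiles 25.8, 19.5 and 10.2 of CpG-rich entries and at 65.7, 59.5 and 46.2 of the remainder. *Elf5* was at percentile 23.1 of the latter entries.

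**Figure D4:**
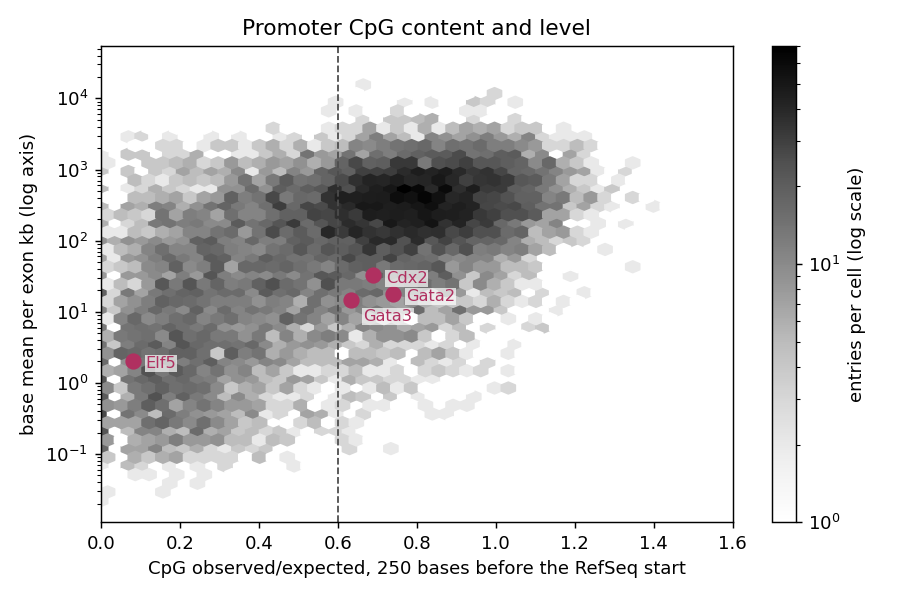
CpG observed over expected ratio in the 250 bases before the RefSeq start (horizontal; in annotated exon for *Gata2* and *Elf5*) against base mean per exon kb as the mean over 6 libraries (vertical, log axis). Grey cells are numbers among 14312 entries, red points are trophoblast genes (the longer entry for *Elf5*), and the dashed line is the 0.6 minimum of CpG-rich windows; *Cdx2*, *Gata2* and *Gata3* lie right of it and beneath the dense cloud of CpG-rich entries.

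The windows were also searched, on both strands, for GGAATG, the core bound by TEAD factors, and GATAA, the core bound by GATA factors, and none of the windows of the 4 genes held both. GGAATG occurred in 12.6% of all 32851 windows and GATAA in 22.6%. Neither was present in the windows of *Cdx2* and *Gata3*. The window of the shorter *Elf5* entry held 1 GATAA, the window of its longer entry held 1 GGAATG, and that of *Gata2* held 1 GGAATG.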

How the data were processed

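Nuclear RNA of 3 UNT and 3 OHT libraries, made with a directional kit, was sequenced as 40 bp paired-end reads. After an rRNA filter (Bowtie2), reads were mapped by the authors to mm10 with STAR, and those left unmapped with Bowtie2. Read pairs were counted by a custom script of the authors over a non-redundant set of mappable RefSeq genes and passed to DESeq2. The deposited base mean is a signal: normalised counts averaged over the 6 libraries, with no division by length. The other columns hold the authors' comparison of OHT with UNT (fold change, standard error, statistic, p-values and a mark for the threshold) and were not used. Depth per library is unknown, and the count test foreseen for counts per library was not run.

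Identifiers were named through RefSeq (GRCm38.p6, 20446 entries) and then GENCODE vM21, whose coordinates are those of mm10. Exon length and span are those of the GENCODE transcript paired with the identifier, available for 98.3% of 19198 entries with a base mean above 0. Where several transcripts were paired, the one with the longest span was taken. The 1435 entries at 0 were left out of percentiles, in which tied entries count equally above and below. Promoters came from RefSeq. All 9 genes, the lowest and highest gene of each list, the paralogs, *Rybp* and *Yaf2* were named by rule. Members and lists were chosen with earlier results of these data known. Alternatives were gene span or no length, the entries at 0 included, a base mean of at least 10, 1 entry per gene, and summed entries. Python 3.11.15, numpy 2.4.6, pandas 2.3.3, scipy 1.17.1 and matplotlib 3.10.9 were used, and the percentile calculation was tested on simulated data.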

Additional observations from a re-analysis of the deposited data

How the results depend on the processing

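No paired analysis was possible because no value per library was used. For the same reason neither the replicate block nor leaving out each replicate could be run, and how far any level varies between libraries is unknown. The median percentile of the 7 trophoblast genes, 28.38 per exon kb, was 43.14 per kb of gene span, 32.31 with no division by length, 33.29 with entries at 0 included and 12.55 against a background limited to a base mean of at least 10. *Elf5* does not reach that minimum, and the median over the 6 members that do was 16.11, an alternative chosen after seeing the data. With summed entries the median percentile of the 7 genes was again 28.38. Among the members that setting moved only *Elf5*, from percentile 12.58 to 17.13, and *Elf5* stayed last, so the median could not change. With 1 entry per gene the median percentile was 28.82. This lay inside the exact 95% binomial interval of the rank of *Gata2*, the middle member (27.7 to 29.0). That interval covers only the number of entries, counted as independent, and is not an error of the median over the 7 genes. The number above the median fell from 2 to 1 per kb of gene span, where *Tead4* dropped below it, and was 2 under the other 5 alternatives. *Elf5* was last of the 7 under the 5 alternatives that put no minimum on the base mean.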
